A study of Mus musculus with 6 samples.

Results

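The 40 genes described here carry out or control the synthesis of cholesterol and fatty acids. They were chosen by name as pathway members and found on the array through the RefSeq accession of each probe. A probe was kept if 3 or more of the 6 arrays had it called well above background by the scanner software. All 40 genes had a kept probe, and they are 40 of the 17834 genes tested. They fall into 15 enzymes of sterol synthesis, 5 genes that sense sterol or make up the SREBP system, 19 genes of fatty acid synthesis and activation, and Soat1, which stores cholesterol as esters.

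RNA came from male mouse skin cells sorted 3 days after treatment, 3 samples per group from different mice. All mice were depilated and carried a K15-EGFP reporter, and the skin then received either acetone, the vehicle, or 7,12-dimethylbenz[a]anthracene (DMBA), a polycyclic hydrocarbon that forms DNA adducts. The sorted cells were high in EGFP and in surface integrin alpha 6 and lacked surface Sca1. The label HFSCs/HG stands for stem cells and germ of the hair follicle, so both populations share 1 tube and cannot be separated here. The strain, the age of the mice and the dose of DMBA are not given in the sources used here. Each sample was read on a 1-colour Agilent array.

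Cholesterol is built from acetyl-CoA through mevalonate, isoprenoid units, squalene and lanosterol, by enzymes that sit mostly in the endoplasmic reticulum. When sterol in that membrane is low, SCAP escorts the SREBP precursors to the Golgi, where proteases release a transcription factor that raises most genes of the route. When sterol is high, the INSIG proteins hold SCAP back, and these genes decline together. SREBP1 drives mainly the fatty acid genes and SREBP2 mainly the sterol genes. In skin, both routes supply sebum, the barrier lipids of the epidermis and the membranes of dividing cells.

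No member passed the test. With limma and Benjamini-Hochberg adjustment over all genes, 0 of 40 members had an adjusted p under 0.05, and the smallest value among them was 0.959, for Soat1. Among all genes the share was 0% as well, and the smallest adjusted p was 0.438. At an unadjusted p under 0.05, limma called 0 members higher and 0 lower after DMBA, against 2.74% and 2.5% of all genes. Of the members, 23 had a positive difference (DMBA minus vehicle) and 17 a negative one. Their median difference was 0.048 on the log2 scale, beside -0.011 over all genes tested.

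Levels are log2 intensities relative to the 75th percentile of the same array, so 0 is that percentile and 1 unit is a doubling. Differences are on the same log2 scale. Levels of different genes come from different probes and are not compared. Of the 40 members, 39 were well above background on all 6 arrays. The exception was Fads3, a desaturase family member, with 2 of 3 arrays in each group.

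The upstream bases of 4 members are shown because the SREBP system acts through such sequences. Hmgcs1 and Acsl1 hold the only matches to the sterol regulatory element among the members. Mvk has the most CCAAT matches, and Elovl6, like Acaca, has none of the motifs searched. Each line is the stretch of 250 bases before a RefSeq start site in build GRCm38.p6, 5′ to 3′ on the gene's strand. Capitals mark matches on either strand to CCAAT (bound by NF-Y), GGGCGG (bound by Sp1) or TCACNCCAC (a sterol regulatory element).
Hmgcs1, chr13:119690101-119690350, plus strand: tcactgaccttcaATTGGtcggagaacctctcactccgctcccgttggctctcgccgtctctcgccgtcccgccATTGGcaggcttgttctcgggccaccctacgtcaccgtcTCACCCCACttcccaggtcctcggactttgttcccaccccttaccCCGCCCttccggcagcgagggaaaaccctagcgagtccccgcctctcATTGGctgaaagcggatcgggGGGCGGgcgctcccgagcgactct
Mvk, chr5:114444019-114444268, plus strand: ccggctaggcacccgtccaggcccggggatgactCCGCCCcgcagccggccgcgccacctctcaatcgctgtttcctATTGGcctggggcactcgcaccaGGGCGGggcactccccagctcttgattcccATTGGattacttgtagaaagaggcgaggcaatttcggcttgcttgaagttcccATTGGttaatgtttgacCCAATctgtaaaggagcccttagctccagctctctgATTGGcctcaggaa
Acsl1, chr8:46490716-46490965, plus strand: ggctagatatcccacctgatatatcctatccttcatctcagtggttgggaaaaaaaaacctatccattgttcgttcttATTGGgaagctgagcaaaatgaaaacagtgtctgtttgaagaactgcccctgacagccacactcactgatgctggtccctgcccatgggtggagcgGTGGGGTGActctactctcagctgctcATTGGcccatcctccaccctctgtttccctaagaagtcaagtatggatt
Elovl6, chr3:129532136-129532385, plus strand: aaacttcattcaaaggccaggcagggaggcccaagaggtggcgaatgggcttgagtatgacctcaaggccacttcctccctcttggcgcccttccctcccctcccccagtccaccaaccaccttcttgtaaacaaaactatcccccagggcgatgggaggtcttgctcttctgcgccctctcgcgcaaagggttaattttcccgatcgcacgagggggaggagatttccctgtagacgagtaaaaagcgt

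In Hmgcs1 the sterol regulatory element reads TCACCCCAC and begins 137 bases before the start site, with 3 CCAAT matches printed around it. In Acsl1 the match lies on the other strand, 76 bases before 1 of its start sites. RefSeq windows of 300 bases (250 before and 50 after the start) were at hand for 33 of the 40 members. Windows for Sqle, Fdft1, Fdps, Scd1, Scd2, Elovl3 and Fads1 were not used here. CCAAT occurred in 12 of the 12 sterol enzymes with a window and in 10 of 15 fatty acid genes. It occurred in 81.8% of all members with a window, in 42.2% of the 14136 tested genes with one and in 41.1% of all 27025 genes of the table. GGGCGG occurred in 11 of 12 sterol enzymes and 9 of 15 fatty acid genes, with 78.8% for the members, 56.9% for the tested genes and 38.2% for all genes. TCACNCCAC occurred in 6.06% of the members and 1.46% of the tested genes, and in 1.44% of all genes. These are matches of letters and not measured binding. In 1 member window the matches of 2 motifs overlap.

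The 15 sterol synthesis enzymes did not move in 1 direction. Their differences ran from -0.42 for Sqle to 0.74 for Mvk, with 10 positive, 5 negative and a median of 0.078. That median was -0.052 with the slide as a block, so it has no settled sign. The groups failed to overlap in 3 enzymes, with DMBA above vehicle in 1 of them and below it in 2. Over all 40 members the counts were 1 above and 5 below, beside 4.88% and 5.17% of all genes.

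**Figure D1:**
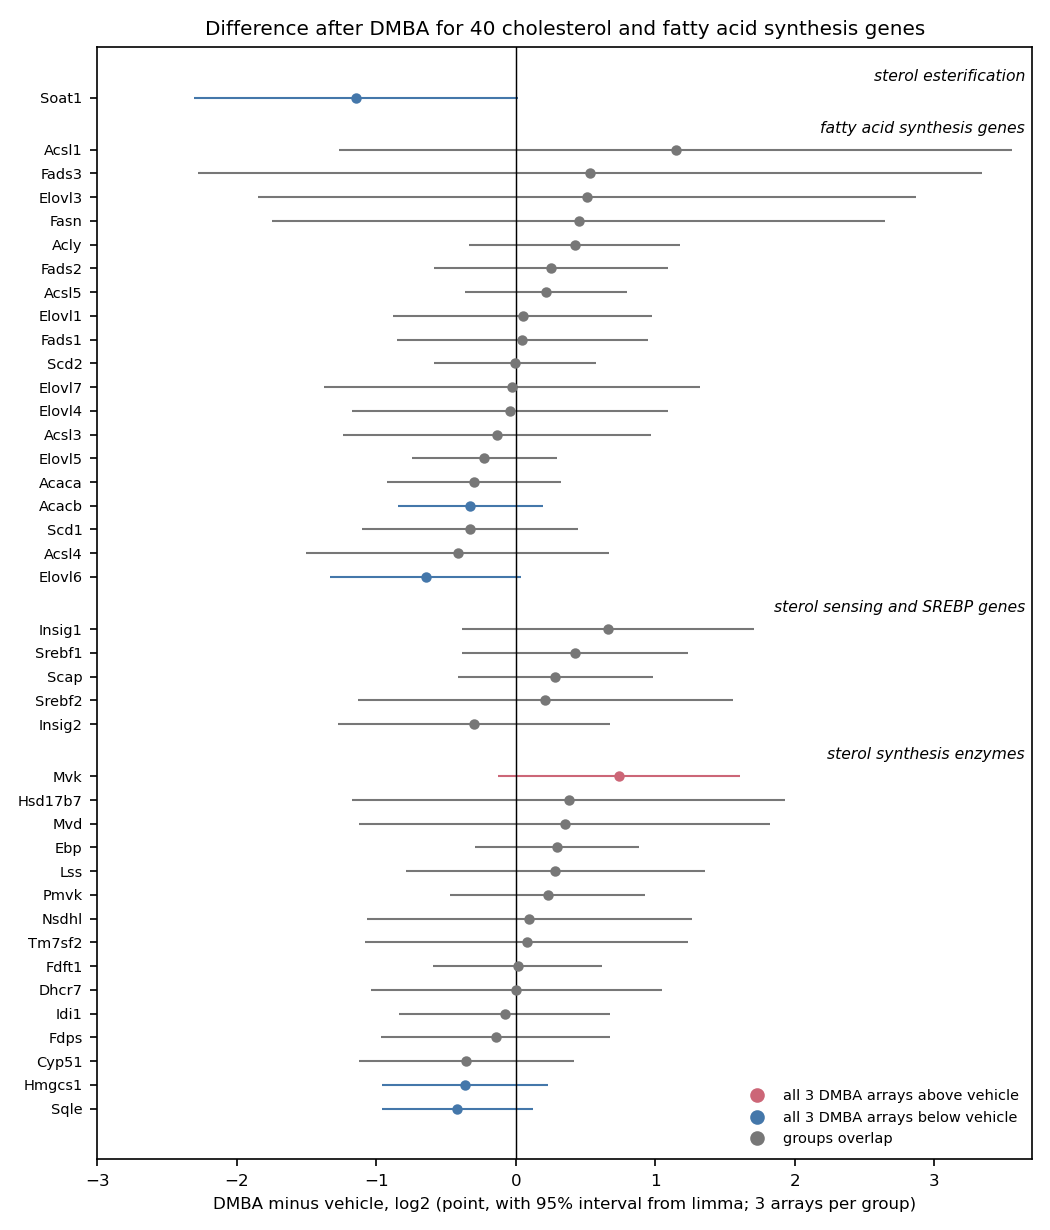
Each row is 1 of the 40 genes, the x axis is the difference DMBA minus vehicle in log2 units, and the bar is the 95% interval from limma with 3 arrays per group; colours mark genes whose groups do not overlap. All 40 intervals include 0, and the 6 coloured points are Mvk on the positive side and Sqle, Hmgcs1, Acacb, Elovl6 and Soat1 on the negative side.

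Hmgcs1 makes HMG-CoA, an early intermediate of the route. It lay at 3.16, 3.13 and 3.25 in vehicle and at 2.46, 2.94 and 3.06 in DMBA. All DMBA values lie below the vehicle values, and DMBA 1 is the lowest by a clear gap. The difference was -0.36 (SE 0.25, n = 3 per group, adjusted p = 1.00 by limma), or -0.18 without DMBA 1. A second, much dimmer Hmgcs1 probe, well above background on 4 arrays, gave -2.58 (SE 1.63). It read -7.65 on DMBA 1 and -6.87 on DMBA 2, where the lowest values of any probe were -8.01 and -7.32. The size of its difference is thus not reliable. The probe in use was 136-fold brighter than that one.

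Mvk, mevalonate kinase, lay at 1.01, 1.42 and 1.13 in vehicle and at 2.64, 1.54 and 1.59 in DMBA. The groups are separated by only a small gap, between vehicle 2 and DMBA 2, and DMBA 1 stands well above the rest. The difference was 0.74 (SE 0.36, adjusted p = 0.967 by limma), a 1.67-fold higher mean, and it was 0.38 without DMBA 1. The other Mvk probe gave 0.43 (SE 0.28) with overlapping groups. The next enzymes of the isoprenoid segment varied around 0. Pmvk, which adds the next phosphate, differed by 0.23, Mvd, the decarboxylase, by 0.35, Idi1, the isomerase, by -0.081 and Fdps, which makes farnesyl diphosphate, by -0.14. A second Pmvk probe, only 1.075-fold dimmer, gave -0.18 (SE 0.24), so the sign of Pmvk depends on the probe. The DMBA arrays of Mvd alone spanned -0.16 to 1.91.

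Fdft1, squalene synthase, read almost equal in both groups. The vehicle mean was 4.26 ± 0.28 (SD, n = 3) and the DMBA mean 4.27 ± 0.19, with a 95% interval of the difference from -0.59 to 0.62. Sqle, squalene epoxidase and a slow step of the late route, lay at 2.30, 2.09 and 2.23 in vehicle and at 1.87, 1.55 and 1.94 in DMBA. Each DMBA array lies below each vehicle array. The difference was -0.42 (SE 0.22, adjusted p = 0.985 by limma), a 1.34-fold lower mean, and without any single array it lay between -0.50 and -0.30. Lss closes the ring to lanosterol, and its difference was 0.28.

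The enzymes after lanosterol gave both signs. Cyp51, the lanosterol demethylase, differed by -0.35, but by -0.11 without vehicle 1. Tm7sf2, a sterol reductase, differed by 0.078. Nsdhl and Hsd17b7, which act together in removing methyl groups, differed by 0.098 and 0.38. Ebp, the sterol isomerase, differed by 0.30, or 0.15 without DMBA 1. Dhcr7, which makes cholesterol from 7-dehydrocholesterol, differed by 0.0047, with an interval from -1.04 to 1.05. On the Hsd17b7 probe in use vehicle 1 was low, at -0.83 beside 0.89 and 1.73, and the difference without it was -0.34. A second Hsd17b7 probe, 1.34-fold dimmer, was not low there. It read 0.45, 0.13 and 0.21 in vehicle and gave 0.21 (SE 0.24).

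**Figure D2:**
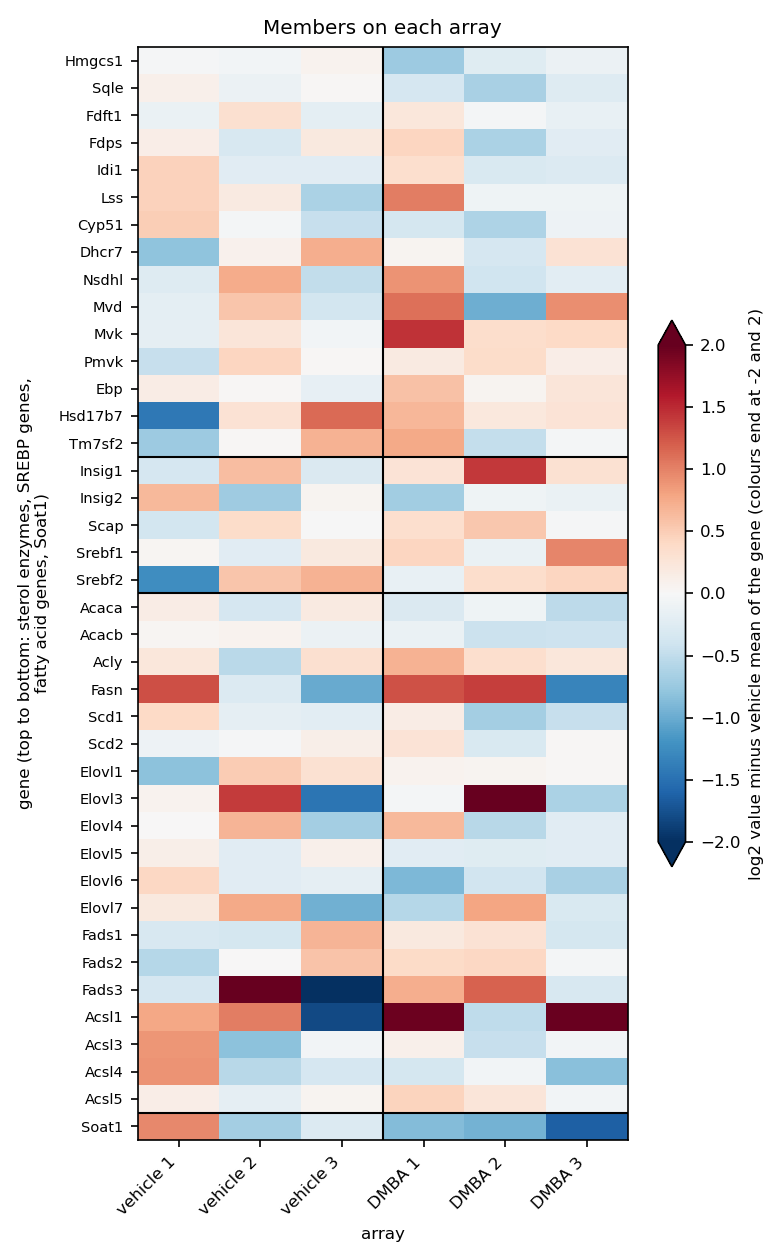
Rows are the 40 genes by role, columns are the 6 arrays, and colour is the log2 value minus the vehicle mean of that gene, with colours ending at -2 and 2. Apart from the single row of Soat1, no group has 1 colour across the 3 DMBA columns, and the first sterol rows, Hmgcs1 and Sqle, are blue in all 3.

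The other genes of sterol synthesis and uptake, which are no members, were read from a separate list of 11. In that list 3 differences were positive and 8 negative, with a median of -0.12, and 0 passed at an unadjusted p under 0.05. Npc2, which moves cholesterol out of lysosomes, differed by 0.36 (SE 0.24), with overlapping groups.

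Among the 5 genes of sterol sensing, 4 differences were positive, the median was 0.28, and in none did the groups separate. Insig1, which holds SCAP back and is itself an SREBP target, lay at -1.34, -0.39 and -1.29 in vehicle and at -0.73, 0.40 and -0.70 in DMBA. In each group replicate 2 was the highest, and the groups overlap through vehicle 2. The difference was 0.66 (SE 0.43, adjusted p = 0.999 by limma). It was 0.29 without DMBA 2 and 0.97 without vehicle 2. Insig2, its relative, differed by -0.30 and Scap, the escort of SREBP, by 0.28, or 0.10 without vehicle 1.

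Srebf1, which encodes SREBP1, lay at -0.82, -1.08 and -0.65 in vehicle and at -0.42, -0.97 and 0.13 in DMBA, where DMBA 2 falls within the vehicle values. The difference was 0.43 (SE 0.33), with 0.15 without DMBA 3 and 0.70 without DMBA 2. Srebf2, which encodes SREBP2, lay at 0.46, 2.26 and 2.41 in vehicle and at 1.56, 2.06 and 2.15 in DMBA. Vehicle 1 was low for Srebf2, also on its other probe, at -1.97 beside 0.54 and 0.15. The difference of Srebf2 was 0.21 (SE 0.55), and it was -0.41 without vehicle 1. SREBP activity depends on cleavage of the protein, which these arrays do not measure.

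**Figure D3:**
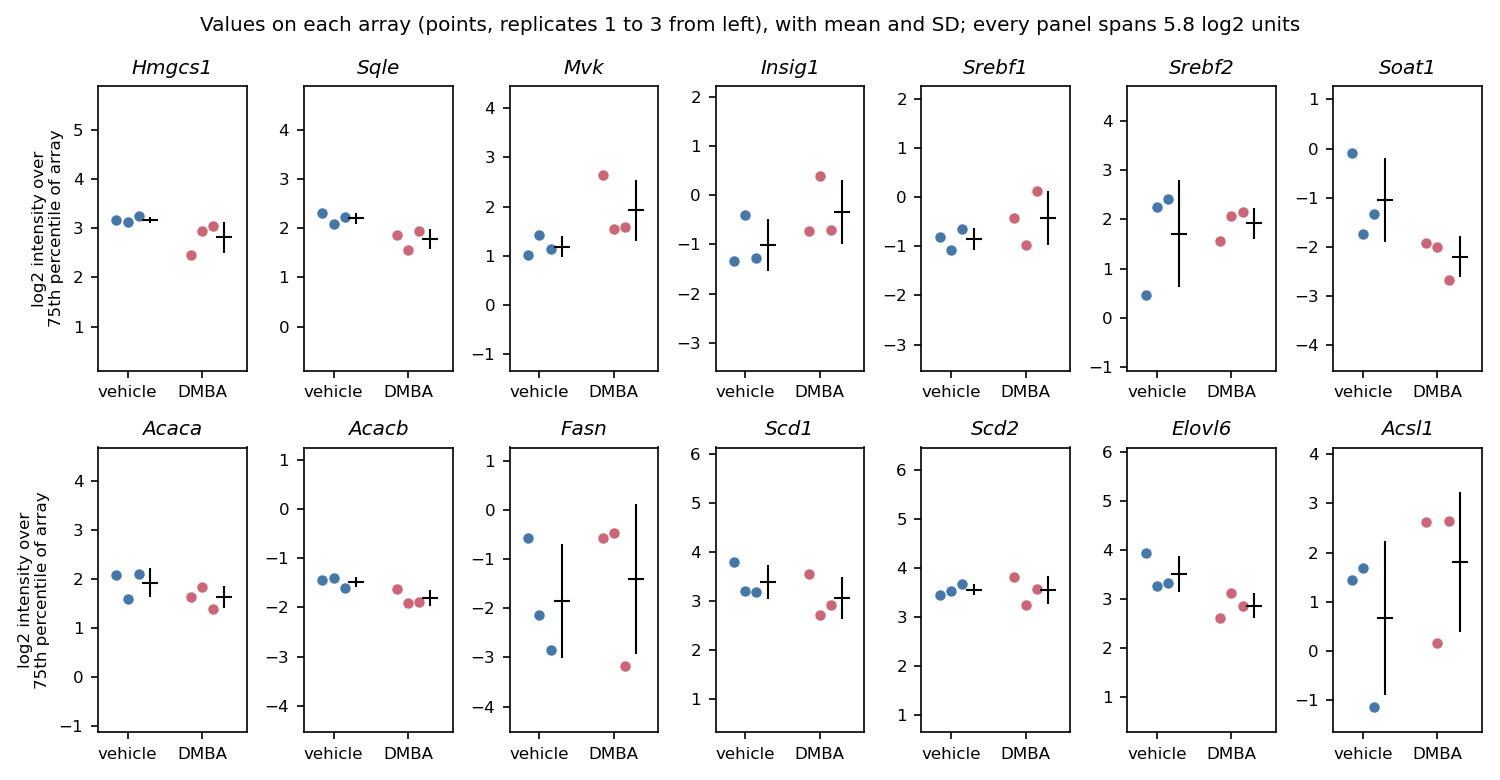
Each panel is 1 gene, points are the arrays of replicates 1 to 3 from left in vehicle and DMBA, and the bar beside them is mean and SD; the y axis is the log2 intensity relative to the array's 75th percentile, with the same span in every panel. Vehicle 1 sits apart in Srebf2 (0.46) and Soat1 (-0.098), and the points of Fasn and Acsl1 spread widely in both groups.

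Efflux and SREBP processing genes were read as a list of 9, with 4 positive and 5 negative differences, a median of -0.028 and 0 at an unadjusted p under 0.05. The 4 of smallest p were the ubiquitin ligase gene Mylip at 0.57, the LXR gene Nr1h3 at 0.46, the cholesterol exporter Abca1 at -0.41 and the other LXR gene Nr1h2 at -0.19. Their SEs ran from 0.24 to 0.58, and their groups overlap.

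Soat1 esterifies cholesterol for storage in droplets and is abundant in sebaceous cells and steroid-making cells. Its level was -0.098, -1.74 and -1.32 in vehicle and -1.91, -1.99 and -2.68 in DMBA. The groups do not overlap, but the gap between vehicle 2 and DMBA 1 is small, and vehicle 1 stands far above the others. The difference was -1.14 (SE 0.48, unadjusted p = 0.053, adjusted p = 0.959 by limma), a 2.21-fold lower mean. Without vehicle 1, which lay on a slide and a scan of its own, it was -0.66.

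Vehicle 1 also had the highest value of 5 of the 8 sebaceous gland markers measured. Mc5r lay at -1.73 there and between -3.17 and -2.51 on the other arrays. Gata6 lay at -0.92, beside -3.08 to -1.36 elsewhere, Pparg at 1.73, beside -1.12 to 0.41, Krt79 at 3.93, beside 2.89 to 3.62, and Cidea at -0.046, beside -1.03 to -0.14. The other 3 did not peak there. Awat1 lay at -4.53, beside -4.77 to -2.03 elsewhere, Awat2 at -6.21, beside -8.64 to -3.19, and Far2 at 0.17, below its 3 DMBA values of 0.24 to 0.32. The sebaceous list had 8 of 9 markers measured, 4 with a positive and 4 with a negative difference, and its summed level ran from 3.29 to 4.43 on the vehicle arrays and from 3.76 to 3.91 on the DMBA arrays. Dgat2l6 was well above background on 0 arrays, Awat2 on 1 vehicle and 2 DMBA arrays and Awat1 on 5 of 6. The adipocyte list had 5 of 6 markers measured, with sums from 0.45 to 1.24 in vehicle and from 0.50 to 0.90 in DMBA. The part of such cells in the value of Soat1 was not tested. In RNA of a whole sort, fewer cells of a type and less RNA per cell cannot be told apart.

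The fatty acid genes held a median difference of -0.0050, with 9 positive and 10 negative values from -0.65 for Elovl6 to 1.15 for Acsl1. In 0 of the 19 did all DMBA arrays lie above the vehicle arrays, and in 2 all lay below. Among all genes the shares were 4.88% and 5.17%. Acly, which cuts citrate to give acetyl-CoA for both routes, differed by 0.42 on the probe in use and by -0.39 on a probe 8.42-fold dimmer, so its sign depends on the probe. The first value was 0.15 without vehicle 2.

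Acaca, the acetyl-CoA carboxylase that makes malonyl-CoA for synthesis, lay at 2.08, 1.59 and 2.11 in vehicle and at 1.64, 1.85 and 1.40 in DMBA. These values overlap, and the difference was -0.30 (SE 0.26). The other Acaca probes gave -0.19 (SE 0.36) and 0.31 (SE 0.48), so its sign depends on the probe. Acacb, whose malonyl-CoA restrains entry of fatty acids into mitochondria, lay at -1.44, -1.41 and -1.60 in vehicle and at -1.62, -1.92 and -1.89 in DMBA. The groups are separate by a hair, between vehicle 3 and DMBA 1. The difference was -0.33 (SE 0.22, adjusted p = 0.999 by limma), and the other Acacb probe gave -0.25 with overlapping groups.

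Fasn, the synthase that builds palmitate, spread widely. It lay at -0.57, -2.13 and -2.86 in vehicle and at -0.57, -0.46 and -3.17 in DMBA. Each group has members at the top and at the bottom of the range. The difference was 0.45 with a 95% interval from -1.75 to 2.65.

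The desaturases Scd1 and Scd2 put the first double bond into saturated chains. Scd1 lay at 3.79, 3.21 and 3.18 in vehicle and at 3.54, 2.71 and 2.93 in DMBA, with a difference of -0.33 (SE 0.32) and overlapping groups. For Scd2 the values were 3.46, 3.54 and 3.67 in vehicle and 3.82, 3.26 and 3.57 in DMBA. Its difference was -0.0050, with an interval from -0.59 to 0.58, so a change of 1 log2 unit in either direction lies outside it. Fads1, Fads2 and Fads3, of which the first pair desaturate polyunsaturated chains, differed by 0.046, 0.25 and 0.53, and the interval of Fads3 ran from -2.28 to 3.34.

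Among the elongases, Elovl6 had the smallest p. It extends palmitate to stearate and is an SREBP1 target. It lay at 3.93, 3.27 and 3.32 in vehicle and at 2.61, 3.12 and 2.86 in DMBA. Every DMBA value lies below every vehicle value, with vehicle 1 the highest and DMBA 1 the lowest. The difference was -0.65 (SE 0.28, unadjusted p = 0.061, adjusted p = 0.962 by limma), a 1.56-fold lower mean, and -0.44 without vehicle 1. Elovl5, an elongase of polyunsaturated chains, differed by -0.23 (SE 0.21).

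The remaining elongases lay nearer to 0 or were wide. Elovl1 and Elovl4, which make very long chains for skin barrier lipids, differed by 0.050 and -0.043, and Elovl7 by -0.028. A second Elovl1 probe gave 0.40 (SE 0.24), with all DMBA arrays above the vehicle arrays. Elovl3, known from sebaceous gland and brown fat, ran from -3.80 to -0.94 in vehicle and from -2.98 to -0.14 in DMBA, with a difference of 0.51 (SE 0.97).

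**Figure D4:**
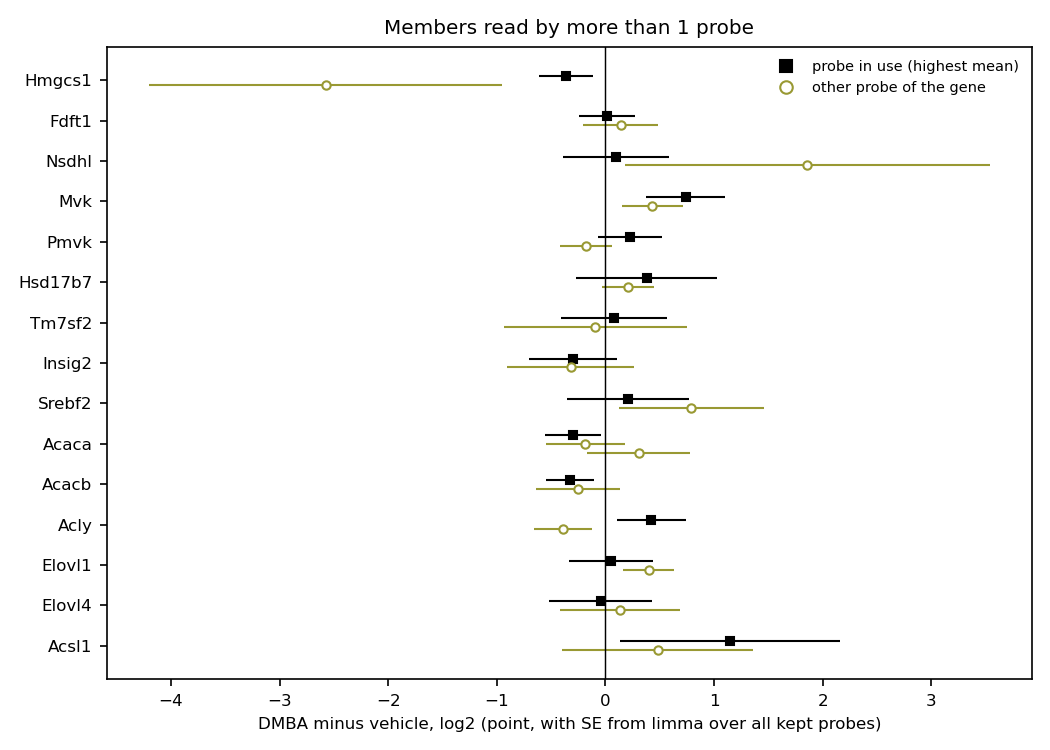
Rows are the 15 members read by more than 1 kept probe, the x axis is DMBA minus vehicle in log2 units with its SE from limma, filled squares are the probe in use (highest mean) and open circles the others. The signs differ within 5 genes, Acly among them, and the widest bars belong to the dim probes of Hmgcs1 (-2.58) and Nsdhl (1.86). Both probes fall near the lowest value of an array, that of Nsdhl at -8.26 on vehicle 2 (lowest -8.73), so these sizes are not reliable.

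The acyl-CoA synthetases join fatty acids to coenzyme A. Acsl1 had the largest positive difference of the members, 1.15, but also an SE of 1.00. It lay at 1.44, 1.69 and -1.14 in vehicle and at 2.63, 0.16 and 2.64 in DMBA. On this probe, the one in use, vehicle 3 and DMBA 2 are both low, and the groups overlap. Without vehicle 3 the difference was 0.24, without vehicle 2 it was 1.66, and without DMBA 2 it was 1.97. The other Acsl1 probe, 1.59-fold dimmer, gave 0.48 (SE 0.88) with overlapping groups. It was also low on vehicle 3, at -1.76, but read 1.11, 0.89 and 0.42 in DMBA, so DMBA 2 was not low there. Acsl3, Acsl4 and Acsl5 differed by -0.14, -0.42 and 0.21, and Acsl4 by 0.033 without vehicle 1.

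Genes around the fatty acid route, again no members, gave no call at an unadjusted p under 0.05 in any of 3 lists. The supply and regulator list of 11 had 7 positive and 4 negative differences, with a median of 0.18. Its smallest p values belonged to Thrsp, a lipogenic regulator, at 1.06 (SE 0.78), and to the nuclear receptor Ppard at 0.47 (SE 0.43). The list of 18 for elongation, activation and glycerolipid synthesis had 13 positive and 5 negative, with a median of 0.15. In it Gpam, which starts glycerolipid synthesis, lay at -0.80, -0.97 and -0.44 in vehicle and at -1.42, -1.21 and -1.10 in DMBA, without overlap, and differed by -0.51 (SE 0.24, unadjusted p = 0.079 by limma). Lpin1, a phosphatidate phosphatase, differed by -2.49 (SE 1.16), but it was well above background on only 2 of 3 DMBA arrays. Its DMBA 2 value was -7.15, beside -3.36 and -3.31 for the other DMBA arrays. The lowest value of any probe on DMBA 2 was -7.32, so the size of the Lpin1 difference is not reliable. The oxidation list of 9 had 5 positive and 4 negative, with a median of 0.22. Its carnitine palmitoyltransferases went opposite ways, with Cpt2 at 0.70 (SE 0.38) and Cpt1a, the one that malonyl-CoA inhibits, at -0.55 (SE 0.32).

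The gene groups were also followed array by array, as the median over genes of the value minus the vehicle mean. For sterol enzymes it was -0.13, 0.083 and -0.058 on vehicle 1 to 3 and 0.42, -0.31 and -0.084 on DMBA 1 to 3. The DMBA arrays thus spread on both sides of the vehicle arrays. Fatty acid genes lay at 0.13, -0.18 and -0.12 in vehicle and at 0.15, -0.056 and -0.31 in DMBA. SREBP genes lay at -0.33, 0.37 and 0.053 in vehicle and at 0.27, 0.35 and 0.30 in DMBA, closer together than in vehicle. Over all genes the medians stayed between -0.086 and 0.14.

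**Figure D5:**
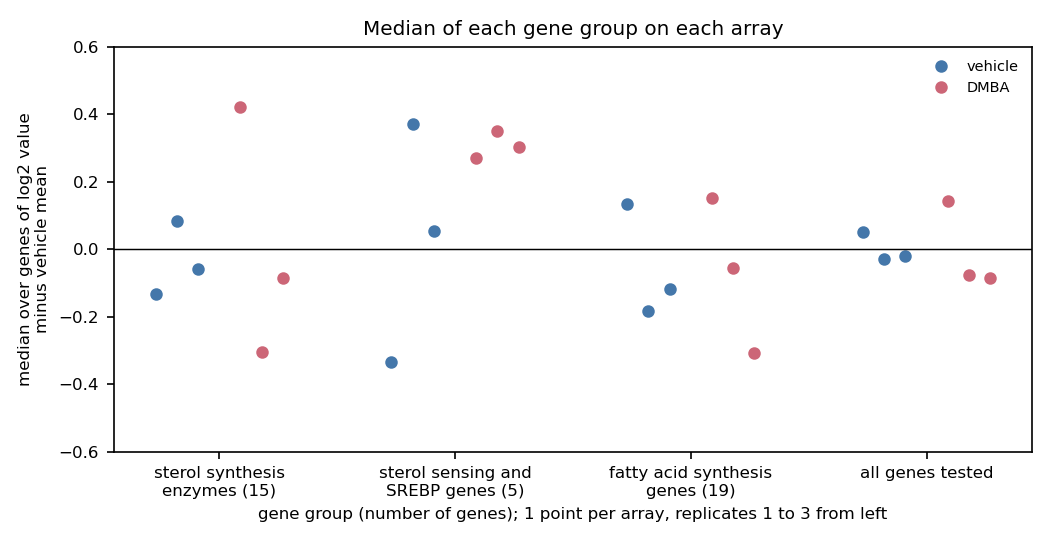
Points are single arrays, replicates 1 to 3 from left, and the y axis is the median over the genes of a group of the log2 value minus the vehicle mean, for 3 groups of members and for all genes tested. In sterol enzymes DMBA 1 is the highest point, at 0.42, and DMBA 2 the lowest, at -0.31, with the vehicle arrays between.

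Vehicle 1 was the highest or the lowest array in 20 of the 40 members, or 50%, beside 37.3% of all genes. DMBA 1 was so in 30% of members and 44.4% of all genes, and DMBA 3 in 15% and 29.2%. The largest SEs among the members, from 0.91 to 1.16, belonged to Fads3, Acsl1, Elovl3 and Fasn.

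How large a change could have been missed follows from the intervals. Each 95% interval reaches the same distance to either side of the difference. The median of that distance was 0.88, from 0.52 for Elovl5 to 2.81 for Fads3. In 15 members the whole interval lay between -1 and 1, namely in 7 sterol enzymes, 7 fatty acid genes and 1 sterol sensing gene. In the other 25 a 2-fold difference in at least 1 direction lies within the interval.

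The arrays as wholes did not separate by treatment, with r across genes from 0.937 to 0.951 within groups and from 0.934 to 0.948 between them. All 8 stem cell markers were well above background on all 6 arrays, with summed levels from 6.98 to 7.09 in vehicle and from 6.94 to 7.28 in DMBA. Markers of other cell types, such as Adipoq, Cd3e and Krt1, were also well above background on all 6. Such calls therefore cannot check the labelled cell type. Among all marker lists, 4 genes were higher and 1 lower after DMBA at an unadjusted p under 0.05 by limma, and 0 after adjustment. The unadjusted shares among all genes were 2.74% higher and 2.5% lower. The stem cell marker Lgr5 differed by -0.64 (SE 0.22) and the fibroblast gene Dcn by 1.51 (SE 0.25). Ly6a, which encodes the Sca1 protein absent from the gate, differed by 1.45 (SE 0.45). The melanocyte gene Mlana differed by 2.72 (SE 0.95), with overlapping groups. The remaining one, Tyrp1 of melanocytes, was higher but well above background on only 1 of 3 vehicle arrays, so no size is given. The other 4 melanocyte markers differed by -0.046 for Dct, 0.10 for Tyr, -0.47 for Pmel and -0.075 for Mitf, and the list of 6 had a median of 0.030. The stem cell list had 2 positive and 6 negative differences, with a median of -0.14. The list of Ly6a, for epidermis and infundibulum, had 4 positive and 1 negative (median 0.55). Of the 5 fibroblast markers listed, the 3 measured were positive (median 1.29). Pdgfra was well above background on 0 arrays and Lum on 1 vehicle and 1 DMBA array. The hair germ list had 2 positive and 3 negative (median -0.021). The part of these cell types in the members' values was not tested. The 75th percentile intensity ran from 1355 to 2274 and the share of probes above background from 69.3% to 83.6%, lower on DMBA 2 and DMBA 3 than on the vehicle arrays.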

How the data were processed

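Sorted HFSCs/HG from 3 vehicle and 3 DMBA mice were read on 1-colour arrays. Per the submitters' processing notes, the authors extracted intensities with Agilent Feature Extraction 10.7.1.1. The deposited scanner files hold background-corrected intensity on a linear scale and, per the file headers, name the mouse build mm9. The deposited matrix holds intensity divided by each array's 75th percentile. Its log2 values tracked the scanner values (r of at least 0.99992) and served as an alternative, and its column medians were, in vehicle, 0.162, 0.154 and 0.154, and, in DMBA, 0.172, 0.159 and 0.16.

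Values are log2 processed intensity minus the array's log2 75th percentile. Control spots were left out, outlier spots were set missing, and spots of a probe were averaged. The filter on background kept 44955 of 55681 probes. Symbols came from the RefSeq annotation of GRCm38.p6, matched by accession, and promoter windows from the same build. A gene took its kept probe of highest mean. All 17834 genes were fitted with limma 3.58.1 in R 4.3.3 (lmFit and eBayes, two-sided, Benjamini-Hochberg adjustment). The fit was tested on simulated data. The number of arrays limits the precision. 15 alternatives were run, and 1 of them, normexp on median spot signals, was chosen after seeing the data because the files have no mean signal column.

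The members and lists were chosen with earlier results of these data known. Values on all arrays are given for members at an unadjusted p under 0.05 or with groups that do not overlap, and for a fixed set of well-known pathway genes, with Acsl1 added after its values were seen. Up to 4 genes of smallest p are named from each list of other pathway genes, of which some are not reported here, and markers beyond the sort are named only where they move with a member.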

Additional observations from a re-analysis of the deposited data

How the results depend on the processing

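In 15 alternatives, 0 members reached an adjusted p under 0.05 with limma. The count of members higher after DMBA at an unadjusted p under 0.05 went from 0 to 3 with each array's percent above background as a covariate (Lss, Mvk and Acsl1, with Acsl1 at 2.79), a setting that called 756 of all 17834 genes higher, beside 488 without it, and moved the median of all genes to 0.10. With the replicate number as a block it was 1 (Insig1), and leaving out 1 array it ranged from 0 to 1 (Mvd, without DMBA 2). The counts of all genes higher were 509 with that block and 534 without DMBA 2. The count of members lower went from 0 to 2 with normexp (Elovl6 and Soat1), to 1 each with quantile normalization, with probes above background on all arrays and with the replicate block (Soat1 in each), and ranged from 0 to 1 leaving out 1 array (Soat1, without vehicle 2). Of all genes, 548 were lower with normexp, 526 with quantile normalization, 391 of 15250 above background on all arrays, 469 with the block and 428 without vehicle 2, beside 445 of 17834 with the settings of the report. Same-numbered samples did not deviate together over all genes (r of 0.018, -0.020 and 0.059). Such values cannot show a link confined to some genes, and the labels state no pairing. The sterol median ranged from -0.093 to 0.18 and the fatty acid median from -0.18 to 0.12 leaving out 1 array. Hmgcs1 was -1.47 with the mean of its probes, which takes in the dim probe whose size is not reliable. Cyp51 was -0.063 with the covariate. Leaving out 1 array, Acaca ranged from -0.47 to -0.18 and Acsl5 from 0.095 to 0.35.

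The sign held in all 15 alternatives in 16 members (Hmgcs1, Sqle, Cyp51, Mvk, Ebp, Insig1, Scap, Srebf1, Acaca, Acacb, Acly, Elovl5, Elovl6, Acsl1, Acsl5 and Soat1) and turned in 24, where the cause was not tested. No alternative read another probe of a gene alone. Such a probe had the opposite sign in Acly (-0.39) and in Acaca (0.31), so the sign of these genes depends on the probe. With quantile normalization Fdft1 was -0.035. With the slide as a block, which leaves out vehicle 1 in effect, Fdft1 was -0.052, Idi1 0.15, Dhcr7 -0.40, Nsdhl -0.032, Pmvk -0.0028, Hsd17b7 -0.34, Tm7sf2 -0.28, Insig2 0.028, Srebf2 -0.41, Elovl1 -0.36, Elovl7 0.072, Fads1 -0.12, Fads2 -0.035, Acsl3 0.30 and Acsl4 0.033. With the covariate Fdps was 0.22, Idi1 0.31, Dhcr7 -0.21, Srebf2 -0.37, Scd1 0.13, Scd2 0.17, Elovl1 -0.12, Elovl4 0.72, Fads1 -0.24 and Acsl3 0.16. From the deposited matrix Dhcr7 was -0.00072. With the mean of a gene's probes Tm7sf2 was -0.0077 and Elovl4 0.045. Leaving out 1 array, the differences ranged from -0.093 to 0.18 for Fdft1, -0.43 to 0.10 for Fdps, -0.29 to 0.15 for Idi1, -0.087 to 0.52 for Lss, -0.40 to 0.37 for Dhcr7, -0.30 to 0.47 for Nsdhl, -0.021 to 1.01 for Mvd, -0.0028 to 0.44 for Pmvk, -0.34 to 0.95 for Hsd17b7, -0.28 to 0.43 for Tm7sf2, -0.65 to 0.028 for Insig2, -0.41 to 0.56 for Srebf2, -0.053 to 1.33 for Fasn, -0.14 to 0.14 for Scd2, -0.36 to 0.31 for Elovl1, -0.34 to 1.21 for Elovl3, -0.39 to 0.30 for Elovl4, -0.51 to 0.35 for Elovl7, -0.13 to 0.39 for Fads1, -0.035 to 0.53 for Fads2, -0.56 to 1.79 for Fads3, -0.54 to 0.30 for Acsl3 and -0.69 to 0.033 for Acsl4.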
